A study of Mus musculus with 150 samples.

Results

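The cytosolic heat shock genes are 10 mouse genes, taken by name: the inducible HSP70 pair Hspa1a and Hspa1b, the constitutive HSP70 Hspa8, the HSP90 genes Hsp90aa1 and Hsp90ab1, the J-domain genes Dnaja1 and Dnajb1, the small heat shock gene Hspb1, the HSP110 gene Hsph1 and the transcription factor Hsf1. All 10 were found among the 24341 rows of the bulk table and among the 31175 gene rows of the single-cell tables. The set was chosen by gene family, and with the measured bulk difference of Hspa1b and its relatives between genotypes already in view, so the bulk differences below are given as a description.

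The series compared mouse lung epithelial cells with and without p53. The 6 bulk libraries came from mice aged 8 to 12 weeks carrying Scgb1a1-CreERTM, a tamoxifen-inducible recombinase driven in secretory airway cells, and the Rosa26-mT/mG reporter. Wild-type mice were p53+/+ (replicates 1, 5 and 6) and knockout mice were p53flox/flox (replicates 7, 8 and 10), although the genotype label of the latter reads p53-/-. Recombined cells were sorted as GFP+, EpCAM+, CD31/34/45- and 7AAD-. The titles name day 30 and the protocol 70 days after tamoxifen. The single cells, after tamoxifen at 250 mg/kg in both genotypes, were captured on 1 microfluidic C1 chip per genotype (66 kept cells from the wild-type chip and 61 from the chip with the knockout label). The labels leave unclear whether these cells carried an induced or a full deletion, and whether they were fresh or cultured.

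Heat shock proteins are molecular chaperones. HSP70 proteins bind unfolded stretches of client proteins in a cycle driven by ATP: J-domain proteins deliver clients and stimulate ATP hydrolysis, HSP110 proteins exchange the nucleotide, and HSP90 receives partly folded clients such as kinases and steroid receptors. Under heat or proteotoxic stress HSF1 is released from chaperones, forms trimers and binds repeated GAA units, called heat shock elements, in front of the inducible genes. Handling and dissociation of tissue are themselves known to induce some of these genes.

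The upstream sequences of 4 of the genes are shown. Hspa1b and Dnajb1 were taken because they did not overlap between genotypes in bulk, and Hspa1a as the near copy of Hspa1b. Hspb1 was taken because it had the largest difference of mean log2 levels between cell states on both chips. Each run is the 250 bases before a transcription start in RefSeq (GRCm38.p6), 5′ to 3′ on the strand of the gene, at chr17:34972157-34972406 (minus strand) for Hspa1a, chr17:34959239-34959488 (minus strand) for Hspa1b, chr5:135887669-135887918 (plus strand) for Hspb1 and chr8:83607925-83608174 (plus strand) for Dnajb1. Capitals mark GAANNTTC or TTCNNGAA, a pair of facing GAA units; both motifs read the same on either strand.
Hspa1a: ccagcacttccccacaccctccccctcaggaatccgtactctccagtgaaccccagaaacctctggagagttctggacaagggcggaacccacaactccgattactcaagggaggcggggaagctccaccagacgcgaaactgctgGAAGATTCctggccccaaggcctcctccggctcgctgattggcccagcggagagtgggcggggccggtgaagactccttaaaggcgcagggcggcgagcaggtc
Hspa1b: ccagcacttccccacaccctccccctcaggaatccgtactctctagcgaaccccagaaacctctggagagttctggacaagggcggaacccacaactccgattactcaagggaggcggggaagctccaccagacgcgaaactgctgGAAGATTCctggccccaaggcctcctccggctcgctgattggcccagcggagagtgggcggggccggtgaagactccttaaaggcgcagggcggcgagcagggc
Hspb1: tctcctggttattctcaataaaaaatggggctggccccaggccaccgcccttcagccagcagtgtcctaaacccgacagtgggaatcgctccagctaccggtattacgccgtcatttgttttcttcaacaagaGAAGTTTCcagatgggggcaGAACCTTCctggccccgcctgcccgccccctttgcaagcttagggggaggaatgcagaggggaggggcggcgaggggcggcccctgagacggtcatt
Dnajb1: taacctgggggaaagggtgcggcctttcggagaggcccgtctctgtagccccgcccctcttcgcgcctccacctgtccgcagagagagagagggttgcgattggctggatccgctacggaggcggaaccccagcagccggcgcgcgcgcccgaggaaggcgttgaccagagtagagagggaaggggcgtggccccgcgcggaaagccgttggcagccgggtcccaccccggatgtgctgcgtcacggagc
The Hspa1a and Hspa1b runs were identical at 247 of 250 positions. They differed by C44T, T47C and T249G, with the Hspa1a base first and positions counted from 1 at the 5′ end. Both held GAAGATTC, beginning 104 bases before the start. Hspb1 held GAAGTTTC and GAACCTTC, beginning 117 and 97 bases before the start. In the Dnajb1 run neither motif was found, nor in the window before its other RefSeq start, at chr8:83608548. Only exact GAA and TTC units were searched, so elements with imperfect units would be missed. RefSeq's table also held Dnaja1 (3 starts) and Hsph1 (2 starts). For Dnaja1, GAAAATTC lay 124 bases before 1 of the starts, and for Hsph1, TTCTCGAA lay 54 and 33 bases before its starts. The longer motif GAANNTTCNNGAA, searched with its reverse complement TTCNNGAANNTTC and overlapping both shorter ones, occurred in no upstream window of these genes and in 0.466% of the 32851 windows of this length. GAANNTTC occurred in 6.69% and TTCNNGAA in 7.17% of them, and the 2-unit motifs were added after the longer motif gave no match.

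Hspa1b (chr17:34956436-34959238, minus strand) and Hspa1a (chr17:34969190-34972156, minus strand) lie 9951 bases apart, with coordinates from GENCODE M21 on mm10. The other genes lie on other chromosomes or farther away: Hsp90ab1 at chr17:45567775-45573271 (minus), Hspa8 at chr9:40800984-40810087 (plus), Hsp90aa1 at chr12:110690605-110702728 (minus), Dnaja1 at chr4:40722150-40737149 (plus), Dnajb1 at chr8:83608193-83612653 (plus), Hspb1 at chr5:135887919-135889563 (plus), Hsph1 at chr5:149614287-149636376 (minus) and Hsf1 at chr15:76477422-76501913 (plus). Of all 75-base words of the longest Hspa1a transcript, 52.7% also occurred in Hspa1b, and 55.8% of the Hspa1b words occurred in Hspa1a. How the authors' counting shared reads between them was not given in the sources used here, so the split between the pair is uncertain. The share of words that occurred in any other annotated gene, pseudogenes included, was 68.6% for Hspa8, 53.1% for Hsp90aa1, 47.3% for Hspb1, 26.2% for Dnaja1, 0.736% for Hsp90ab1 and 0% for Dnajb1, Hsph1 and Hsf1, so levels of the first 4 carry the same uncertainty.

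Trp53, the deleted gene, stood at 16.6, 22.2 and 21.7 FPKM (fragments per kilobase of transcript, scaled to library size) in the wild-type libraries and at 8.63, 9.98 and 7.56 FPKM in the knockout libraries. In the single cells it went against the label: 4 of the 66 wild-type cells, but 16 of the 61 knockout-labelled cells, held Trp53 at 1 TPM (transcripts scaled to a fixed total per cell) or more. Differences between the chips are therefore given as differences between chips with these labels. The bulk libraries also differed in makeup. The summed FPKM of 15 ciliated cell markers was 795, 240.0 and 234 in wild-type replicates 1, 5 and 6 and 950.3, 1281 and 742 in knockout replicates 7, 8 and 10. The sum of 10 immune markers ran from 1040 to 2332 in wild type and from 639 to 804 in knockout. Among them is Cd74, detected in 71.2% of kept cells on the wild-type chip and 72.1% on the other. This sum is therefore not specific to immune cells. All 9 immune markers that were tested in bulk had a negative difference, knockout minus wild type. The sum of 8 alveolar type 2 markers ran from 2399 to 5836 in wild type and from 1767 to 1937 in knockout. Wild-type replicate 1 had the lowest sum of club cell markers, 33560 FPKM against 63353 to 80256 in the other libraries. In bulk samples fewer cells of a type and less RNA per cell cannot be told apart. The spacing of low FPKM values put the libraries at about 6300000 (knockout replicate 10) to 44200000 reads (wild-type replicate 1).

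The inducible HSP70 genes were the lowest of the set in bulk, and Hspa1b was higher in all knockout libraries. Hspa1b, which encodes a stress-induced HSP70, stood at 2.72, 3.06 and 2.98 FPKM in wild-type replicates 1, 5 and 6 and at 7.35, 7.64 and 5.51 FPKM in knockout replicates 7, 8 and 10. Every knockout library lay above every wild-type library, and the ratio of means was 2.34. On the log2(FPKM + 1) scale the difference was 0.99 (SE 0.14). Hspa1a, which encodes a nearly identical protein, stood at 3.57, 1.82 and 1.79 FPKM in wild type and at 3.15, 4.81 and 3.79 FPKM in knockout. Here wild-type replicate 1 lay inside the knockout range, and the difference was 0.56 (SE 0.23). These levels rested on about 63 to 510 reads per gene and library, as estimated from the spacing of FPKM values.

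The order of the libraries differed between the pair. For Hspa1a, the lowest libraries were wild-type replicates 5 and 6, which also had the lowest ciliated marker sums, and wild-type replicate 1 was high in both. For Hspa1b, wild-type replicate 1 was the lowest of all 6 libraries, while its ciliated sum was the third highest. Hspa2, an HSP70 abundant in testis, ordered the libraries exactly as the ciliated sum did: 18.8, 9.02 and 5.89 FPKM in wild type and 24.5, 27.2 and 18.3 FPKM in knockout. The part of the ciliated signal in the Hspa1a, Hspa1b and Hspa2 differences was not tested. Hspa1l, which starts 546 bases from Hspa1a on the opposite strand, stood at 0.138 to 0.424 FPKM and was too low to be tested.

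**Figure D1:**
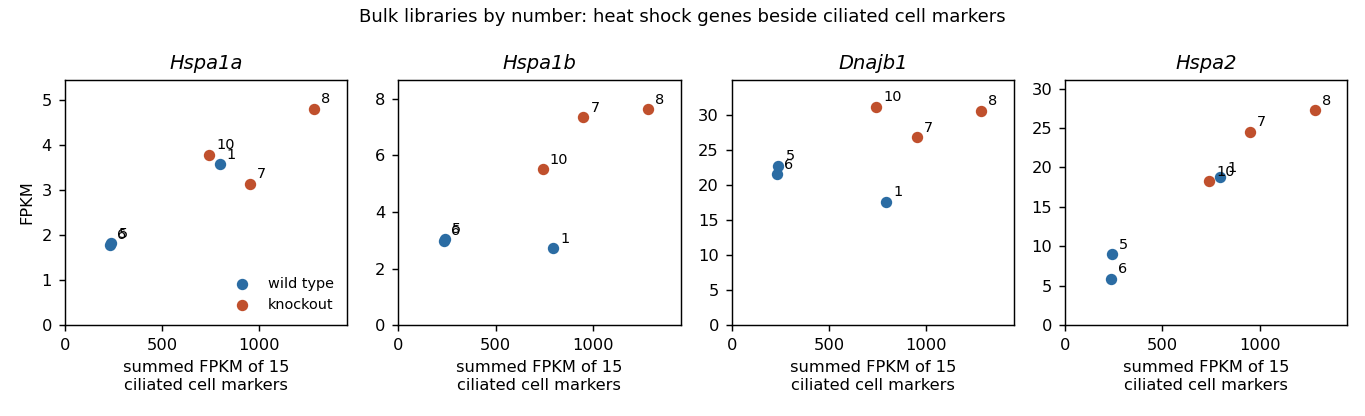
FPKM of Hspa1a, Hspa1b, Dnajb1 and Hspa2 (y axes) against the summed FPKM of 15 ciliated cell markers (x axes) in 6 bulk libraries, each point labelled with its replicate number (blue wild type, red knockout). Wild-type replicate 1, with a ciliated sum of 795, sits among the knockout libraries for Hspa1a and Hspa2 and below them for Hspa1b and Dnajb1.

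Dnajb1, the J-domain partner of the inducible HSP70s and a known HSF1 target, was the other gene of the set without overlap. It stood at 17.6, 22.7 and 21.6 FPKM in wild type and at 26.8, 30.6 and 31.1 FPKM in knockout, a ratio of 1.43 and a log2 difference of 0.50 (SE 0.12). The highest wild-type library stood at 22.7 FPKM and the lowest knockout library at 26.8 FPKM. Dnaja1, a farnesylated J-domain protein that works with Hspa8, stood at 28.2, 33.1 and 25.95 FPKM in wild type and at 38.97, 37.2 and 32.4 FPKM in knockout. The groups overlapped by 1 library on each side, and the log2 difference was 0.31 (SE 0.12).

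Hsph1, the HSP110 nucleotide exchange factor, stood at 19.8, 16.4 and 13.5 FPKM in wild type and at 24.6, 21.9 and 13.1 FPKM in knockout. Its lowest library was knockout replicate 10, the shallowest of the 6, and the log2 difference was 0.22 (SE 0.24). It was 0.48 without knockout replicate 10 and 0.05 without knockout replicate 7. Hspa8, the constitutive HSP70, was the most abundant gene of the set at 527, 748 and 592 FPKM in wild type and 857, 665 and 502.2 FPKM in knockout. Both its highest and its lowest library were knockout, and the difference of 0.10 (SE 0.25) was smaller than its error.

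The HSP90 genes showed no separation by genotype. Hsp90aa1, the inducible HSP90, varied least of the 10, from 123 to 137 FPKM over all 6 libraries, with a log2 difference of 0.02 (SE 0.11). Hsp90ab1, the constitutive HSP90, stood at 356, 513 and 567 FPKM in wild type and at 416, 382 and 382 FPKM in knockout. Its lowest library was wild-type replicate 1, the other 2 wild-type libraries were the highest, and the log2 difference was -0.26 (SE 0.21). It was -0.46 without wild-type replicate 1 and -0.12 without wild-type replicate 6.

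Hspb1, the small heat shock protein HSP25, had the widest spread within wild type relative to its mean, 105, 219 and 300.4 FPKM, against 140, 189 and 207 FPKM in knockout. The low value was again in wild-type replicate 1, the library with the lowest club marker sum, whose part was not tested. The log2 difference was -0.11 (SE 0.38). Hsf1, which encodes the activator of the response, stood at 17.4, 16.1 and 20.6 FPKM in wild type and at 19.1, 21.8 and 15.7 FPKM in knockout, and the groups overlapped throughout (log2 difference 0.06, SE 0.15).

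**Figure D2:**
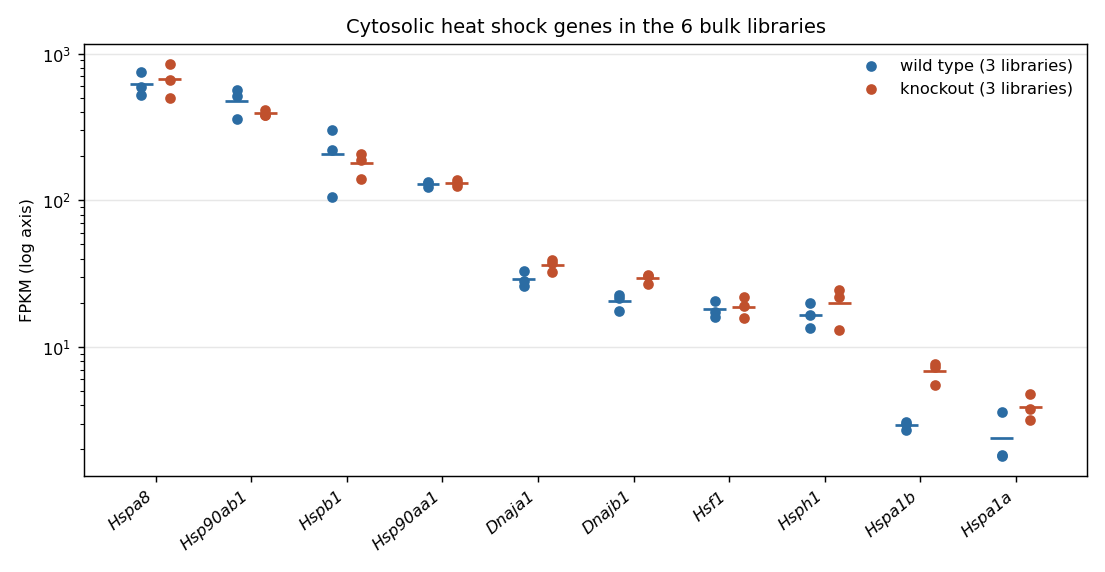
FPKM (log axis) of the 10 cytosolic heat shock genes in 3 wild-type (blue) and 3 knockout (red) bulk libraries; each point is a library and each bar the mean of its group. The knockout points lie above all wild-type points only for Dnajb1 (26.8 to 31.1 against 17.6 to 22.7 FPKM) and Hspa1b (5.51 to 7.64 against 2.72 to 3.06 FPKM).

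By mean FPKM over the 6 libraries the order was Hspa8, Hsp90ab1, Hspb1, Hsp90aa1, Dnaja1, Dnajb1, Hsf1, Hsph1, Hspa1b and Hspa1a. FPKM is scaled per length, which allows levels of different genes to be set side by side. The levels of Hspa1a, Hspa1b, Hspa8, Hsp90aa1, Hspb1 and Dnaja1 stay uncertain because of words shared with other genes. Their places in this order are uncertain as well. Of neighbours in this order, the ranges over the libraries overlapped for Hspa8 and Hsp90ab1, Dnaja1 and Dnajb1, and Dnajb1 and Hsf1. Within each library, however, the first gene of these pairs lay above the other. The closest values were 17.6 FPKM for Dnajb1 and 17.4 FPKM for Hsf1 in wild-type replicate 1. For Hspb1 and Hsp90aa1, Hsf1 and Hsph1, and Hspa1b and Hspa1a, the order also changed between libraries. The lowest library of Hsp90ab1 lay above the highest of Hspb1 (356 against 300.4 FPKM). The lowest library of Hsp90aa1 was well above the highest of Dnaja1 (123 against 38.97 FPKM), and the lowest of Hsph1 above the highest of Hspa1b (13.1 against 7.64 FPKM).

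Over the whole table, limma with Benjamini-Hochberg adjustment over 11957 tested genes put 0 of the 10 genes past an adjusted p of 0.05, where 0.00836% of all tested genes passed. At an unadjusted p under 0.05, 4 were higher (Hspa1a, Hspa1b, Dnaja1 and Dnajb1; 7.04% of all genes) and 0 lower (6.06%). The 3 knockout libraries lay above all wild-type libraries for 2 genes (9.04% of all genes) and below them for 0 (10.2%), so the libraries did not overlap for 2 genes in either direction (19.3%). The difference was positive for 8 of 10 genes (51.5% of all genes), with a median of 0.16 against 0.01 over all tested genes. With library weights estimated by limma, 3 genes passed at the adjusted threshold, Hspa1a, Hspa1b and Dnajb1, where 7.64% of all genes did. Without wild-type replicate 1, 1 gene passed, Hspa1b, where 3.45% of all genes did, 2.92% of all genes being higher. Because the genes were chosen with this comparison in view, nothing is read from these counts.

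The genes whose levels followed Hspa1b most closely over the 6 libraries were Mblac2 (Pearson's r = 0.996 on log2(FPKM + 1)), Rragb, 1110032A03Rik, Top3b and Nt5e, and 168 of 11956 genes had an r above 0.9. For Hspa8 they were Trmt10c (r = 0.98), Zdhhc13, Dcun1d1, Fzd4 and Gabrq, with 38 genes above 0.9. Of the 45 pairs within the set, Hspa1b correlated most with Dnajb1 (r = 0.86) and Dnaja1 (r = 0.85), and Hspa1a was most opposed to Hsp90ab1 (r = -0.92). These are descriptions over 6 libraries that fall into the 2 genotypes.

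The wider chaperone network was described from 12 further lists, none of whose genes passed the adjusted threshold in bulk. In the HSP70 and HSP110 relatives, 5 of 8 were tested and 5 of 5 had a positive difference, with a median of 0.18: Hspa2 at 1.12 (SE 0.37), Hspa4 at 0.25 (SE 0.11) and Hspa4l at 0.18 (SE 0.25), the latter 2 of the HSP110 type. Of 15 J-domain genes, 9 were positive and the median was 0.07. Dnaja4, Dnajb4 and Dnajc2 stood at 0.32 (SE 0.14), 0.32 (SE 0.15) and 0.26 (SE 0.12), and Dnajc2 alone of these did not overlap. In the same list 3 of 15 genes had all knockout libraries above (9.04% of all tested genes) and 1 had all below (10.2%).

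Of 10 HSP70 cofactors, 6 differences were positive with a median of 0.03, and the libraries did not overlap for 3 (19.3% of all tested genes). Bag3, which pairs HSP70 with small heat shock proteins in selective autophagy and is a known HSF1 target, stood at 7.66, 8.503 and 8.01 FPKM in wild type and at 5.94, 6.54 and 4.90 FPKM in knockout. All knockout libraries lay below all wild-type libraries, a log2 difference of -0.42 (SE 0.12), opposite in sign to Hspa1b and Dnajb1. Bag2, which inhibits the ubiquitin ligase that works with HSP70, stood at 14.1, 14.6 and 13.01 FPKM in wild type and at 18.7, 22.2 and 15.6 FPKM in knockout, with no overlap (0.40, SE 0.14). Bag5 also did not overlap, at 0.28 (SE 0.10).

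Of 18 HSP90 cochaperones, 10 were positive and the median was 0.03. All knockout libraries lay above all wild-type libraries for 4 of 18 (9.04% of all tested genes) and below them for 1 (10.2%). Fkbp4, the immunophilin of steroid receptor complexes, stood at 222, 229.7 and 241 FPKM in wild type and at 191, 182 and 153 FPKM in knockout, with no overlap and a log2 difference of -0.40 (SE 0.14). Sugt1, a cochaperone of HSP90 in kinetochore assembly and innate immunity, stood at 22.9, 18.6 and 18.7 FPKM in wild type and at 24.6, 25.9 and 24.8 FPKM in knockout, also with no overlap (0.31, SE 0.11). Chordc1 stood at 0.32 (SE 0.13) with overlap. Of 5 tested genes in the small heat shock list, which leaves out Hspb1, 3 were positive. A place on this list, as for Hspb11, does not establish that a gene encodes a chaperone. Among the tested genes, Cryab stood at -0.43 (SE 0.28), Hspb11 at 0.25 (SE 0.16) and Hspb8 at 0.15 (SE 0.12).

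In the remaining lists the medians lay near that of all genes. They were 0.05 for 14 TRiC and prefoldin subunits, 0.05 for 3 tested heat shock factors and regulators, 0.01 for 11 mitochondrial chaperones, 0.00 for 11 endoplasmic reticulum chaperones, 0.07 for 11 ubiquitin and proteasome genes and 0.00 for 17 immediate early genes. The last list, which holds Fos and Egr1 and is known to respond to tissue handling, had 1 of 17 genes with all knockout libraries above (9.04% of all tested genes), Klf6 at 0.34 (SE 0.13), and 1 with all below (10.2%), Jund at -0.33 (SE 0.15). The oxidative and metal stress list had a median of 0.15 over 12 genes, led by the metallothionein Mt2 at 0.91 (SE 0.24), the quinone reductase Nqo1 at 0.81 (SE 0.50) with overlap, and the metallothionein Mt1 at 0.64 (SE 0.19).

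**Figure D3:**
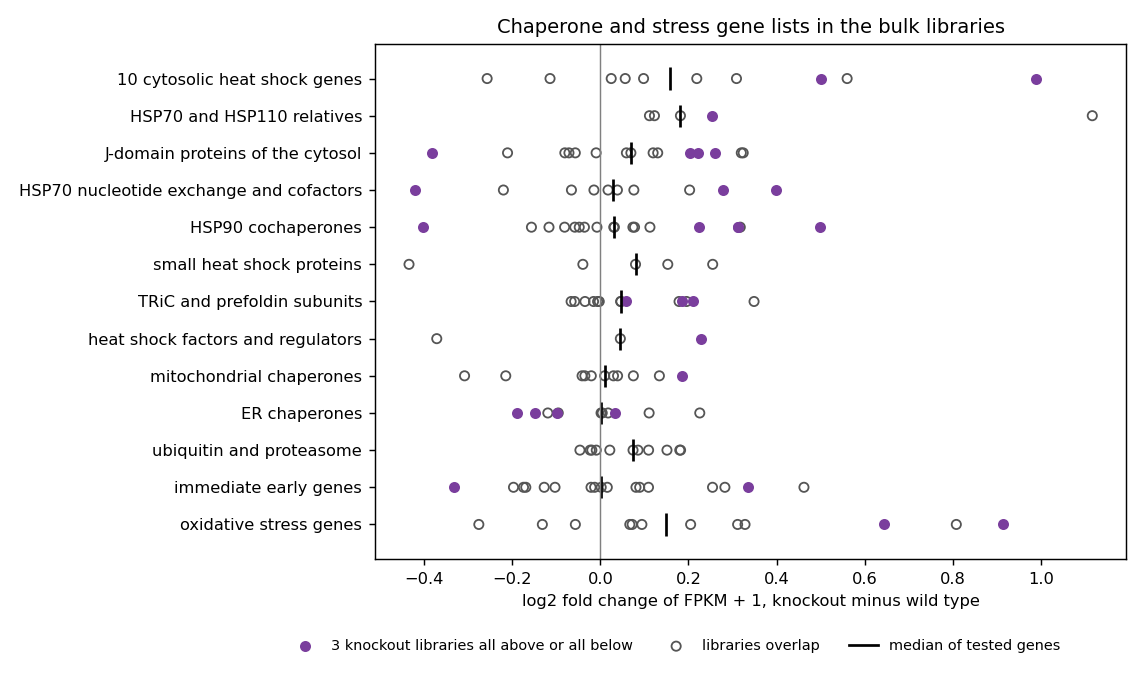
Differences of log2(FPKM + 1), knockout minus wild type, for each tested gene (points) of the 10 cytosolic heat shock genes and 12 further lists; filled points had all 3 knockout libraries above or all below the wild-type libraries, and black bars are medians. The highest filled points are Hspa1b at 0.99 and Mt2 at 0.91, and the lowest is Bag3 at -0.42.

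In the single cells the genes ranged from Hsp90ab1, found in every kept cell, to Hspa1b, found in 10 and 4 cells of the chips. Cells were called Scgb1a1-dominant or Sftpc-dominant by the higher of these transcripts, Scgb1a1 being the secretory protein of club cells and Sftpc the surfactant protein of alveolar type 2 cells. The wild-type chip gave 49 and 17 cells and the chip labelled knockout 46 and 15. Scgb1a1 and Sftpc differed by less than 4-fold in 6 and 15 cells. Other markers followed the dominant transcript: median Cyp2f2, a club cell enzyme, was 12140 TPM against 6.96 TPM in the wild-type chip and 11322 against 842 TPM in the chip labelled knockout, while median Lamp3, an alveolar type 2 marker, was 0 against 342 TPM and 0.075 against 311 TPM. Detected genes per cell had medians of 3131 on the wild-type chip and 3580 on the other, and spike-in RNA took a median of 13.2% and 6.28% of the TPM, so the chips also differed in depth.

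Hsp90ab1 reached a TPM of at least 1, the level counted as detection here, in all 127 cells. On the wild-type and the knockout-labelled chip respectively, Hspa8 did so in 61 and 59 cells, Hsp90aa1 in 57 and 59, and Dnaja1 in 56 and 53. Hspb1 was found in 35 cells (53.03%, exact 95% interval 40.3 to 65.4) and 39 cells (63.9%, 50.6 to 75.8), and Dnajb1 in 20 and 13 cells. The other 4 genes were each found in at most 10 cells of a chip: Hspa1a in 10 and 8, Hspa1b in 10 and 4, Hsf1 in 9 and 5, and Hsph1 in 7 and 9. A cell held a median of 5 of the 10 genes on both chips. The intervals cover counting error only.

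**Figure D4:**
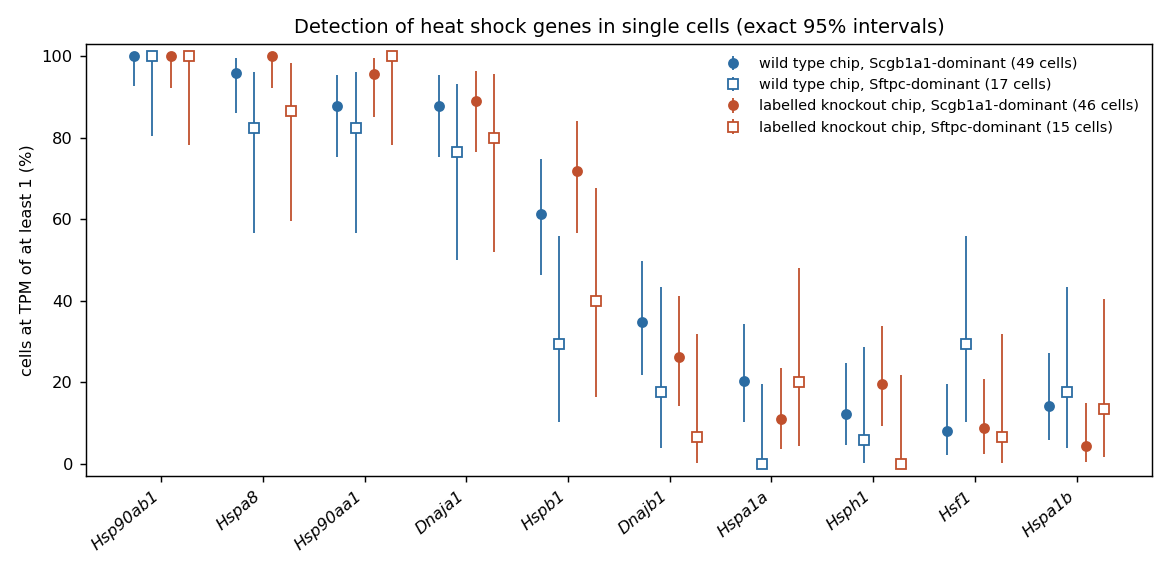
Percent of cells with a TPM of at least 1 (y axis) for each of the 10 genes, by chip (color) and dominant marker (circles Scgb1a1, squares Sftpc), with exact 95% binomial intervals. Hsp90ab1 sits at 100% in every group, Hspb1 is higher in Scgb1a1-dominant cells of both chips (61.2% and 71.7%) than in Sftpc-dominant cells (29.4% and 40%), and 4 genes lie under 30% everywhere.

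Transcripts of the inducible HSP70 pair came from few cells. At least 1 of the pair was detected in 17 of the 66 wild-type cells (25.8%, 15.8 to 38.01) and, on the other chip, in 12 of 61 (19.7%, 10.6 to 31.8). Both genes were found together in 3 wild-type cells and 0 knockout-labelled cells, which allows a share of up to 4.92% of the latter. The highest wild-type values were 93.8 TPM for Hspa1a and 94.2 TPM for Hspa1b, in different cells. On the chip labelled knockout Hspa1a reached 216 TPM and Hspa1b only 6.09 TPM. Counting any TPM above 0, Hspa1b was found in 15 and 13 cells, and at 10 TPM or more in 5 and 0 cells, against 10 and 4 cells at 1 TPM, so the gap between the chips depends on the level counted. The 5 knockout-labelled cells with the highest Hspa1a, from 72.2 to 216 TPM, had Dnajb1 from 0 to 4.43 TPM and Hsph1 from 0 to 5.64 TPM. Foxj1, the ciliated cell regulator, was at 0 TPM in all of these cells with Hspa1a or Hspa1b but 1 wild-type cell at 24.4 TPM. That cell was the only kept cell with Foxj1 detected (1.52% of wild-type and 0% of knockout-labelled cells). With Foxj1 so rare on both chips, nothing is read from its absence.

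By the difference of mean log2(TPM + 1), Hspb1 differed most between cell states on both chips, though not under every setting. On the wild-type chip 30 of 49 Scgb1a1-dominant cells held it against 5 of 17 Sftpc-dominant cells, a gap of 31.8 percentage points (4.3 to 52.1), with mean levels of 2.93 and 1.46 on the log2(TPM + 1) scale. On the chip labelled knockout 33 of 46 against 6 of 15 cells held it, a gap of 31.7 points (3.6 to 54.7), with mean levels of 3.36 and 1.40. The direction was the same on both chips. Sftpc-dominant cells also had fewer detected genes (medians 2633 against 3154 and 3196 against 3824), and the part of depth in the difference was not tested. With each cell centred on its mean level the differences of means were 1.30 and 1.78, against 1.47 and 1.96 uncentred. With cell state by other markers the wild-type chip gave 0.58 for Hspb1 and 0.87 for Dnaja1. In cells with at least 2500 genes it gave 0.88 for Hspb1 and 1.58 for Dnajb1. By the log2 ratio of mean TPM, Dnajb1 and Hsph1 exceeded Hspb1 on the wild-type chip (2.04 and 3.26 against 1.03). The same held on the chip labelled knockout (3.59 and 2.85 against 2.40).

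Dnajb1 leaned the same way, in 17 of 49 against 3 of 17 cells and in 12 of 46 against 1 of 15 cells, but both intervals of the difference held 0 (-9.1 to 35.1 and -6.0 to 34.6 percentage points). Its mean level was higher in Scgb1a1-dominant cells by 1.06 and 1.19. Hsp90ab1 was higher there by 1.00 and 0.61, while the Hsp90aa1 differences were -0.65 and -0.87, so that the HSP90 genes leaned opposite ways on both chips. Hspa8 was higher by 0.16 on the wild-type chip and by 1.25 on the chip labelled knockout, where 12 of 15 Sftpc-dominant and 45 of 46 Scgb1a1-dominant cells reached 10 TPM. By the log2 ratio of mean TPM, Hspa8 was lower in Scgb1a1-dominant cells of both chips (-0.60 and -0.14), and in cells with at least 2500 genes the differences were -1.13 and 1.86.

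Hspa1a had no fixed direction between states. It was found in 10 of 49 Scgb1a1-dominant and 0 of 17 Sftpc-dominant wild-type cells, the latter allowing a share of up to 17.6%, but in 5 of 46 and 3 of 15 on the other chip. Hsf1 was found in 4 of 49 and 5 of 17 wild-type cells (-21.2 percentage points, -45.5 to -1.7), and in 4 of 46 and 1 of 15 knockout-labelled cells (2.03 points, -21.7 to 14.9). Hsph1 was found in 9 of 46 and 0 of 15 knockout-labelled cells, the latter allowing up to 20%. Of the 10 genes, 3 were higher in Scgb1a1-dominant cells by at least 1 on the wild-type chip (10.4% of 9486 compared genes) and 3 on the chip labelled knockout (12.1%), and 0 were lower by that much on either (4.03% and 4.67%). The median differences were 0.26 and 0.62, against 0.12 and 0.11 over all compared genes.

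Within Scgb1a1-dominant cells, those with at least 100 TPM of Scgb3a1, a secretoglobin of mucin-producing airway cells, were compared with the rest, 23 against 26 cells and 33 against 13 cells. Hspb1 was higher by 0.68 and 0.22 in the Scgb3a1-high cells and Dnaja1 by 0.35 and 1.199. Hspa1a went opposite ways, at -0.50 and 0.81. By at least 1, 0 of the 10 genes were higher (6.69% of compared genes) and 0 lower (3.31%) on the wild-type chip, and 1, Dnaja1, was higher (11%) and 0 lower (5.43%) on the chip labelled knockout.

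By mean log2(TPM + 1), Dnaja1 was the only gene of the set that was lower by at least 1 on the chip labelled knockout. Its median was 149 TPM in wild-type cells and 52.99 TPM on the other chip, its mean 228 and 104 TPM, and its mean level 5.93 and 4.92 on the log2(TPM + 1) scale. The shares of cells with Dnaja1 were 84.8% and 86.9%, and among the cells that held it the medians were 189 and 62.9 TPM. Within cell states the differences were -0.82 in Scgb1a1-dominant and -1.58 in Sftpc-dominant cells. Only 0.137% of the 9486 compared genes were lower by at least 1, while 8.03% were higher, among which were 0 of the 10. Within Scgb1a1-dominant cells 0 of the 10 genes were higher (8.78%) and 0 lower (0.232%) by that much, and within Sftpc-dominant cells Hspa1a was higher (14.9%) and Dnaja1 lower (2.52%). The bulk difference of Dnaja1 had the other sign (0.31). Each genotype was 1 chip, so chip and genotype cannot be told apart and no test was made.

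On the log2(TPM + 1) scale the other chip differences were smaller. Hsp90aa1 was higher on the chip labelled knockout by 0.81, Hspa8 by 0.65, Hsp90ab1 by 0.55 and Hspb1 by 0.33. Dnajb1 (-0.49) and Hspa1b (-0.39) were lower, while their bulk differences were positive (0.50 and 0.99). By the log2 ratio of mean TPM, Hspa1b stood at -2.19 and Hspa1a at 1.22, both larger in size than Dnaja1 at -1.13. Hspa1a differed by 0.10 on the log2(TPM + 1) scale. Hspa1a and Hspa1b were each found in at most 10 cells of a chip. The direction turned for Hspa8 in cells with at least 2500 genes (-0.53) and, by the log2 ratio of mean TPM, for Hspa8 (-0.072) and Hspb1 (-0.043), while that ratio for Hsp90aa1 was 0.053. The median over the 10 genes was 0.09, against 0.25 over all compared genes. This chip also had more detected genes per cell, whose part was not tested. Under 3 other settings the median was negative: -0.14 in cells with at least 2500 genes, -0.22 with each cell centred and -0.057 by the ratio of mean TPM.

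**Figure D5:**
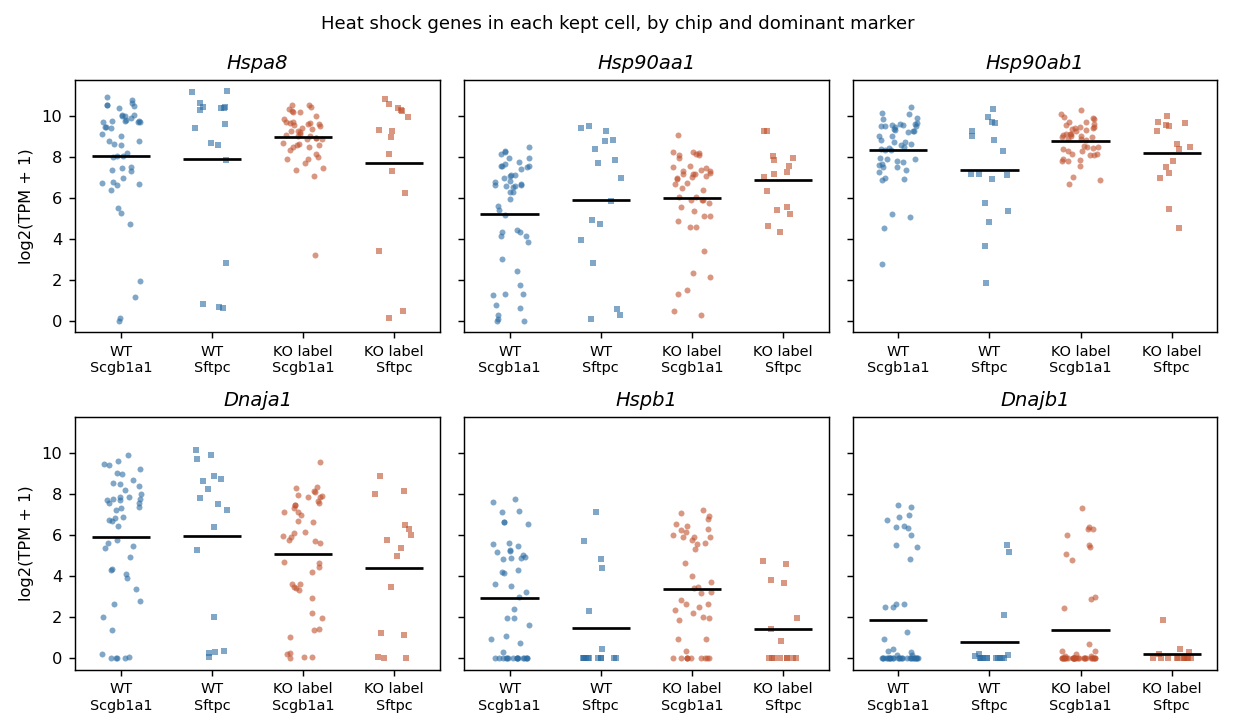
Level as log2(TPM + 1) of 6 heat shock genes in each of 127 kept cells (points), by chip (blue wild type, red labelled knockout) and dominant marker; black bars are means. Dnaja1 means are lower on the chip labelled knockout (5.09 against 5.91 and 4.39 against 5.97), and Hspb1 means are lower in Sftpc-dominant cells (1.46 and 1.40).

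Over single cells the 10 genes varied with little in common. The highest correlation within the set was between Hspa8 and Hsp90aa1 on the wild-type chip (Pearson's r = 0.37 over 66 cells), cells that share a library preparation and differ in depth. Hspa8 followed the number of detected genes on the wild-type chip (r = 0.62) more than on the chip labelled knockout (r = 0.11). Among the genes most like Hspa8 over 127 cells, each chip centred on its own mean, were Ppia (r = 0.54), Cd9, Rps3a1 and Rpl24. Both searches covered only genes detected in at least 30% of the kept cells of both chips. Hspa1a, Dnajb1, Hsph1 and Hsf1 were thus left out. Of the 3169 genes searched for Hspa1b, none reached an r of 0.3, and in values so sparse this is no finding.

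Other lists were compared between cell states in the same way. The states differed in detected genes and spike-in share, whose part in these differences was not tested. Of 14 TRiC and prefoldin subunits, which fold actin and tubulin, 5 were higher by at least 1 in Scgb1a1-dominant cells on the wild-type chip and 6 on the chip labelled knockout (10.4% and 12.1% of all compared genes), with medians of 0.81 and 0.82. Of 12 ubiquitin and proteasome genes 10 and 8 were higher by at least 1 (the same 10.4% and 12.1% of all compared genes), with medians of 1.54 and 1.18. The medians of the HSP90 cochaperones were 0.30 and 0.36, and those of the J-domain list -0.02 and 0.23. On the chip labelled knockout, 6 of 11 endoplasmic reticulum chaperones were higher by at least 1 than on the wild-type chip (median 1.19). So were 7 of 12 ubiquitin and proteasome genes (median 1.04) and 8 of 17 immediate early genes (median 0.85). This held for 8.03% of all compared genes and for 0 of the 10 cytosolic heat shock genes. The chips differed in depth, whose part was not tested.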

How the data were processed

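Bulk values are FPKM that the authors made with TopHat, Bowtie2 and Cufflinks on mm10, and single-cell values are TPM that the authors made with RSEM 1.2.20 and Bowtie 1.1.1 (GRCm38). Both statements follow the submitters' processing notes, and further settings were not given in the sources used here. No read counts were used, so no count test was run. None of the 20 marked entries in the bulk table belongs to a heat shock gene. Log2(FPKM + 1) was tested with limma 3.58.1 under R 4.3.3 for genes that reached 1 FPKM in 3 or more libraries (trended and robust moderation, two-sided, Benjamini-Hochberg adjustment over all tested genes, threshold 0.05). The script was tested on simulated data. On this scale the change of low genes is understated. The labels do not say whether each library is a separate animal, and the p-values measure only the spread between these libraries. Relative read depth was estimated from the spacing of FPKM values below 3.5 reads; 77.8% to 88.6% of them fell within 0.1 of a whole read.

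Cells with a remark on debris or a valve (1 and 3) and cells with under 1000 detected genes (6 and 3) were left out. Means of log2(TPM + 1) were compared without a test, since each genotype was 1 chip, over genes detected in at least 10% of the kept cells of either chip. Shares have exact (Clopper-Pearson) 95% intervals and their differences Newcombe intervals. A count of 0 was taken to allow 3 cells of the total. The labels state that wells were inspected for doublets, and no doublet caller was run. Another 2 knockout samples matched no column and were not used here.

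All 10 heat shock genes are named, with, in each other list, up to 3 genes of largest bulk difference among those averaging 5 FPKM or more, and the 5 genes most like Hspa1b and Hspa8, of which 1 is not reported here; any other gene was named after its values were seen. The members, lists and rules were chosen with earlier results of these data known. Alternatives covered the pseudocount, the filter, scaling, library weights, moderation, each library left out, the cells kept, centring, spike-in rows, the ratio of means and the definition of cell state. Promoters came from RefSeq (GRCm38.p6) and positions and transcripts from GENCODE M21; Hspa8, Hsp90aa1, Hsp90ab1 and Hsf1 had no promoter in that table.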

Additional observations from a re-analysis of the deposited data

Results flagged for a closer look

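Wells that no comparison used held signal above the off-chip negative control, in which no gene of the set exceeded 0.04 TPM. The off-chip positive control of the chip labelled knockout had Hspa8 at 266 TPM, Hsp90ab1 at 159.8 TPM, Hsp90aa1 at 102.8 TPM, Hspb1 at 31.9 TPM, Dnaja1 at 19.4 TPM, Hsph1 at 8.1 TPM, Hsf1 at 5.84 TPM and Dnajb1 at 2.04 TPM. In the 4 wells with a remark on debris or a valve the highest values were 868 TPM for Hspa8, 635 TPM for Hsp90ab1, 239 TPM for Dnaja1, 185 TPM for Hsp90aa1, 87.6 TPM for Dnajb1 and 85.8 TPM for Hspb1. No rule for a sample far from the rest could be applied, since groups of 3 libraries are too small.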

How the results depend on the processing

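The count of heat shock genes past the adjusted threshold in bulk was 0 in 11 of 13 alternatives; it was 3 with limma's library weights and ranged from 0 to 1 when each library was left out, the 1 arising without wild-type replicate 1. The median bulk difference ranged from 0.05 to 0.34 when each library was left out. Hspa1b stayed positive in every bulk alternative, from 0.38 (pseudocount 10) to 1.19 (pseudocount 0.1). Near 0, signs turned for Hspa8 (-0.082 with library weights, and from -0.091 to 0.294 when each library was left out), Hsp90aa1 (from -0.0073 to 0.054), Hspb1 (from -0.54 to 0.212) and Hsf1 (from -0.049 to 0.177), negative for Hspa8 without wild-type replicate 1 or knockout replicate 7, for Hsp90aa1 without wild-type replicate 5 or knockout replicate 7 and for Hsf1 without wild-type replicate 5 or knockout replicate 8, and positive for Hspb1 without wild-type replicate 6 or knockout replicate 7. Hsph1 ranged from 0.049 (without knockout replicate 7) to 0.48 (without knockout replicate 10) and Hsp90ab1 from -0.46 (without wild-type replicate 1) to -0.12 (without wild-type replicate 6). Between chips the median turned to -0.14 in cells with at least 2500 genes, -0.22 with each cell centred and -0.057 by the ratio of mean TPM. Between cell states on the wild-type chip it turned to -0.15 by the ratio of mean TPM, and Hspa8 on the chip labelled knockout to -0.14 by that ratio. On the wild-type chip Hspa8 ranged from -1.13 (cells with at least 2500 genes) to 0.63 (cell state by other markers). Between chips Hspa8 ranged from -0.53 to 0.82 and Hspb1 from -0.043 to 0.69. Hspa1b ranged from -2.19 to -0.19 between chips and Hspa1a from -0.21 to 1.22. The cause of these changes was not tested. Dnaja1 stayed lower on the chip labelled knockout in every alternative run, from -0.74 to -1.39, and Hspb1 stayed higher in Scgb1a1-dominant cells of both chips, from 0.58 to 3.00. The alternatives on each gene's difference between cell states were chosen after seeing the data. No paired analysis was possible because the wild-type and knockout libraries share no replicate number and the cells are numbered only in accession order. Depth limits Hspa1a and Hspa1b to 63 to 510 estimated reads per bulk library, and Hspa1a, Hspa1b, Hsph1 and Hsf1 to at most 10 cells a chip.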
